A study of Mus musculus with 72 samples.

Results

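The retinoic acid receptors Rara, Rarb and Rarg and the retinoid X receptors Rxra, Rxrb and Rxrg are nuclear receptors that read the retinoid signal. An RAR binds DNA as a pair with an RXR. Without ligand the pair holds corepressors at its target genes, and with all-trans retinoic acid it exchanges them for coactivators. Retinoic acid patterns the hindbrain and spinal cord and drives embryonic stem cells towards neural fates in culture, and Rarb is itself a classical target of the signal.

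These 6 genes were taken by symbol out of the 45321 genes of the count table, each read from whichever of its transcripts gathered most counts over all samples. All 6 were among the 18273 genes that passed the filter on low counts and were tested. The samples came from mouse embryonic stem cells compared with and without functional Nup133, a scaffold subunit of the nuclear pore, at the pluripotent stage and in neuroectodermal differentiation. Messenger RNA of 18 samples, 3 per genotype and day, was read as 4 technical libraries each, which were added up.

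The controls were HM1 (Nup133+/+, 40 chromosomes, XY), sampled as 2 biological replicates, and line #1A4 (Nup133+/+, Sox1gfp/+, 40 chromosomes, XY), derived from a blastocyst. The Nup133 KO lines were #14 and #19 (Nup133-/-, XY, 40 chromosomes, in #19 only likely so), made from HM1 with CRISPR/Cas9, and the blastocyst-derived #319 (Nup133merm/merm, Sox1gfp/+, 42 chromosomes, XX with extra 8 and 12). Each KO line gave 1 sample per day, so a KO group of 3 is 3 lines. Day 0 cells came from serum and LIF medium on inactivated fibroblast feeders, which were removed by plating. Day 2 cells had been in N2B27 medium without feeders, and day 3 cells had then received 1 µM all-trans retinoic acid for 24 h. No day 3 sample was without it, so its effect and that of the third day cannot be told apart. The p-values measure the spread between these samples.

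Gene counts per sample ran from 16.5 M to 54.4 M. Nup133 stood at 180 CPM (counts scaled to 1 M per library, with TMM factors) or more in every control sample and at 37.1 CPM or less in every KO sample. The 8 pluripotency markers summed to 4957 to 5213 CPM in controls and 5596 to 6555 CPM in KO lines at day 0. At day 3 they summed to 618 to 722 and 310 to 931 CPM. The 8 fibroblast markers chosen for the feeders summed to 104 to 196, 113 to 170 and 168 to 256 CPM in controls at days 0, 2 and 3. In KO lines the sums were 73.9 to 132, 72.6 to 97.9 and 107 to 172 CPM. The sums thus did not drop by day 3, after culture without feeders. Thy1 was highest at day 2 (31.3 ± 1.35 CPM in controls), and Lum was at most 0.234 CPM. The share of feeder cells was not tested. Line #19 at day 2 was the shallowest sample and stood apart from the rest on the second principal component (-110.83 against -57.31 to -35.31 in the other day 2 samples). Against #1A4, the median gene of line #319 was higher by 0.44 to 0.48 on the log2 scale on chromosome 12. On chromosome 8, where its label also gives an extra copy, it differed by -0.58 to -0.42. A difference from #1A4 alone does not show which line departs from its label. In #19 against HM1 the chromosome 8 median was also lower (-0.22, -0.31 and -0.39 at days 0, 2 and 3). None of the receptors lies on either chromosome.

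Per length of transcript, Rarg was the leading receptor before retinoic acid. At day 0 the control means were 42.6 ± 14.5 CPM per kilobase for Rarg, 28.3 ± 1.38 for Rxrb, 18.8 ± 1.59 for Rara, 4.08 ± 0.57 for Rxra, 0.421 ± 0.059 for Rxrg and 0.051 ± 0.026 for Rarb (SD, n = 3). The same order held at day 2 and in the KO lines at both days. Between neighbours in it, ranges overlapped in 1 place, Rxra (5.63 to 6.59) and Rxrg (3.83 to 5.72) in the KO lines at day 2. At day 3 Rarb had joined the others. In controls Rarb, at 10.4 ± 0.563 CPM per kilobase, stood beside Rxra at 9.34 ± 0.663 with overlapping ranges, and Rarg (33.6 ± 5.26) overlapped Rxrb (28.5 ± 3.09). In the KO lines Rxrb (25.9 ± 3.99), Rarb (23 ± 12.3), Rarg (18.5 ± 10.5) and Rara (16.6 ± 1.46) each overlapped the next, while the means of Rxra (13.0 ± 2.16) and Rxrg (0.972 ± 0.958) were lower. The range of Rxra overlapped those of Rarb and Rarg, and in line #19 Rxra (14.2) was above Rarg (9.68).

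The makeup of the RAR sum differed between lines at day 3. There Rarb gave 16.8%, 14.6% and 14.2% of the RAR sum per kilobase in HM1 replicate 1, HM1 replicate 2 and #1A4. In lines #14, #19 and #319 it gave 41.5%, 58.8% and 18%. Lines #14 and #19 were far above the controls and #319 was just above them. The RAR sum itself was 63.8 to 74.9 CPM per kilobase in controls and 56.6 to 59.7 in KO lines, which do not overlap. The RXR sums of 36.6 to 42.2 and 34.3 to 44.4 did overlap. The RAR sum over the RXR sum was 1.72 to 1.82 in controls and 1.27 to 1.70 in the KO lines. These sums are descriptions of 3 samples a group and were not tested.

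**Figure D1:**
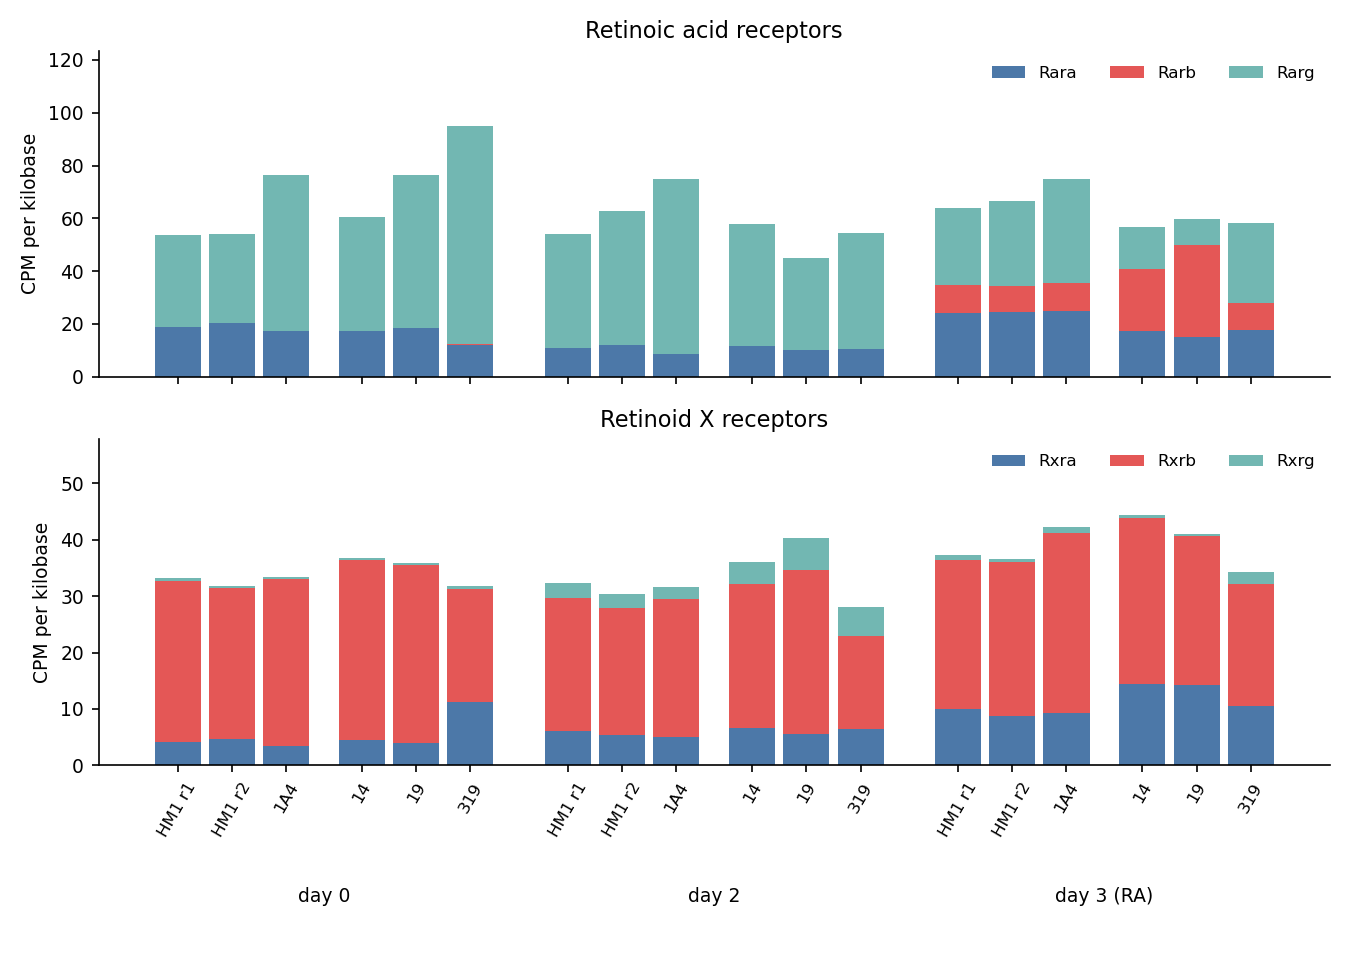
Stacked levels of the 3 RAR genes (top) and the 3 RXR genes (bottom) in each of the 18 samples, in CPM per kilobase of transcript; RA marks the day with retinoic acid. Rarb is seen only at day 3, where it takes 14.2% to 16.8% of the RAR sum in controls and 41.5% and 58.8% in lines #14 and #19.

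From day 0 to day 2, 2 of the 6 receptors changed in controls (35.2% of tested genes did) and 3 of 6 in KO lines (35.9%). From day 2 to day 3 it was 4 of 6 in controls (21.4% of tested genes) and 5 of 6 in KO lines (33.6%). Between days 0 and 3 it was 3 of 6 in each genotype (51% and 50.6%). Rxrb passed in no comparison of days. A change was called at an adjusted p below 0.05 with edgeR's quasi-likelihood test over all tested genes, and the values are given below by receptor. They always follow the order HM1 replicate 1, HM1 replicate 2 and line #1A4 for controls, and lines #14, #19 and #319 for KO lines. In these bulk samples, fewer cells that make a transcript and less of it per cell cannot be told apart.

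**Figure D2:**
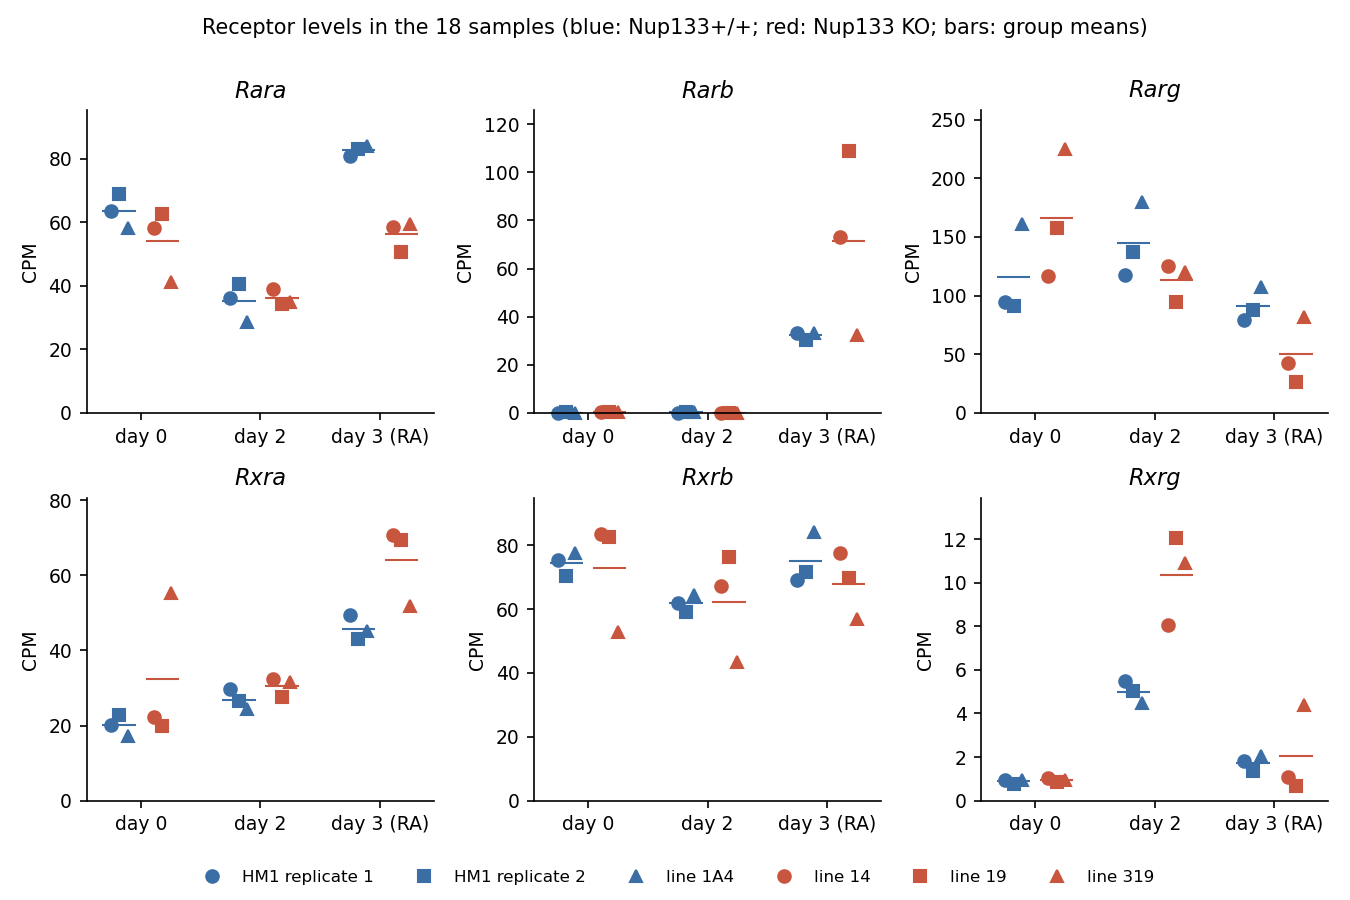
Level of each receptor in CPM by day in the 18 samples, with blue for control and red for Nup133 KO samples, marker shapes for lines and bars for group means. Rarb rises from near 0 to 30.2 CPM or more in all 6 samples of day 3, and Rara at day 3 separates controls (81.1 to 84.0) from KO lines (50.5 to 59.4).

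Rara, a receptor with a broad distribution in tissues, dipped at day 2 and rose at day 3. At day 0 it stood at 63.6, 69.0 and 58.2 CPM in controls and at 58.4, 62.6 and 41.2 CPM in KO lines. On day 2 the values were 36.4, 40.7 and 28.5 CPM in controls and 39.1, 34.2 and 35.1 CPM in KO lines. At day 3 it reached 81.1, 83.3 and 84.0 CPM in controls and 58.7, 50.5 and 59.4 CPM in KO lines. The genotypes overlapped at days 0 and 2. At day 3 all 3 KO lines were below all controls. From day 0 to day 2 Rara fell, by a log2 change of -0.86 ± 0.15 in controls (SE, adjusted p = 0.000496) and -0.57 ± 0.15 in KO lines (adjusted p = 0.00912; 0.0665 without #14). From day 2 to day 3 it rose by 1.25 ± 0.15 in controls (adjusted p = 4.1e-05) and by 0.64 ± 0.15 in KO lines (adjusted p = 0.00495). At day 3 Rara was above its day 0 level in controls (0.39 ± 0.15, adjusted p = 0.0439), a call lost without any one of the 3 controls or #14 (adjusted p 0.0738 to 0.223). With each series of days as a fixed block it was also lost (0.39, adjusted p = 0.0608).

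Between genotypes Rara passed the test at day 3, where KO lines were lower by a log2 difference of -0.56 ± 0.15 (adjusted p = 0.0454). Line by line, against controls of the same background, the log2 differences were -0.49, -0.70 and -0.50. Rara lies on chromosome 11 (98937718 to 98974942, plus strand), and the median of 1186 genes of that chromosome was also lower in these lines, by log2 differences of -0.32, -0.36 and -0.23 at day 3. At day 0 those medians were -0.26, -0.23 and -0.11. At day 2 they were -0.32, -0.29 and -0.19, while Rara itself differed by 0.02, -0.17 and 0.30 in the same lines. With each chromosome's median set to 0 in every sample, an alternative added after the data were seen, Rara's difference was -0.24 ± 0.15 and no longer passed (adjusted p = 0.388). Leaving out a replicate also ended the call in 5 of 6 cases (all 3 controls, #14 and #19), with adjusted p between 0.0577 and 0.219.

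Rarb was nearly silent at days 0 and 2 and rose at day 3 in every line. Its induction by the ligand of the receptor it encodes is a textbook feature of the gene. At day 0 Rarb held 6, 10 and 2 counts in controls (0.156, 0.24 and 0.08 CPM) and 14, 12 and 17 counts in KO lines (0.48, 0.279 and 0.347 CPM). At day 2 it held 3, 10 and 11 counts and 8, 0 and 0 counts. At day 3 it reached 33.4, 30.2 and 33.0 CPM in controls and 73.0, 109 and 32.6 CPM in KO lines. Day 3 samples never overlapped those of the other days. Lines #14 and #19 were far above the controls at day 3, and line #319 was among them.

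Summed over its group, Rarb in controls was 185-fold higher at day 3 than at day 2 (95% interval 124 to 289, exact, counting error only; adjusted p = 1.21e-07). In KO lines it was 768-fold higher (389 to 1778; adjusted p = 3.97e-08). The KO ratio rests on the 8 counts of line #14 at day 2, since the other two lines held 0, which allows up to 3 counts each. Against day 0 the ratios were 189-fold (119 to 319) in controls and 195-fold (144 to 269) in KO lines. From day 0 to day 2 the counts in KO lines went from 43 to 8, a ratio of 0.253 (0.103 to 0.545), which passed the test (adjusted p = 0.0345). It did not pass with line #19 left out at day 2 (0.0809), without #319 (0.0821), without HM1 replicate 2 (0.0563) or with no filter on low counts (0.0534). The change of the KO difference from day 2 to day 3 did not pass either (2.14 ± 0.87, adjusted p = 0.555).

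The Rarb difference between genotypes at day 3 was 1.05 ± 0.37 on the log2 scale and did not pass (adjusted p = 0.106). By line it was 1.20 in #14, 1.78 in #19 and -0.02 in #319. Over the HM1-derived lines alone it was 1.51 ± 0.33 (adjusted p = 0.0284). It also passed without #319 (adjusted p = 0.00941) and without line #19 at day 2 (1.03, adjusted p = 0.0409). In limma-voom with each line's series of days as a random block it passed too (1.00, adjusted p = 0.0431). The correlation within a series was 0.009 in that fit, so the block had little weight there. The 5 neural progenitor markers (Sox1, Pax6, Nes, Sox3 and Neurog2) summed to 591, 887 and 260 CPM in lines #14, #19 and #319 at day 3 and to 282 to 330 CPM in controls, with 4 or 5 of them at 1 CPM or more in every sample. Most of the sum was Nes (136 to 214 CPM in controls, 171 to 444 in KO lines) and Pax6 (23.5 to 42.6 and 36.4 to 322 CPM). Sox1 overlapped between genotypes, and Sox3 was lower in every KO line (25.5 to 36.7 CPM) than in any control (41.5 to 46.1 CPM). The 8 pluripotency markers summed to 459, 310 and 931 CPM in the same lines. Both sums ordered the 3 lines as Rarb did, the second in reverse, and their part in the result was not tested.

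Rarb lies on the minus strand of chromosome 14, and its one transcript in the table, Rarb-201 with 3108 bases in 8 exons, spans 16430839 to 16575543 (GRCm38). The other 6 of its 7 GENCODE M21 transcripts are not analysed here, so no comparison of Rarb transcripts was made. Its exons share 1793 bases with Top2b, a topoisomerase gene on the opposite strand. Top2b held 70.6 to 266 CPM in all samples while Rarb was near 0 at days 0 and 2, so Top2b added at most these few counts to Rarb there. The promoter windows of RefSeq (300 bases, 250 before to 50 after a start site, GRCm38.p6) were searched on both strands for the half-sites AGGTCA, or AGTTCA, or GGGTCA, or else GGTTCA as direct repeats with a spacer of 1, 2 or 5 bases, the arrangement that RAR and RXR pairs are known to bind. Of 13 receptor windows, 1 held such a repeat, that of Rarb, with a spacer of 5 at -53 to -37 from the RefSeq start at 16575476. GENCODE M21 starts Rarb-201 further upstream, so in that annotation the repeat lies after the start. The window of Cyp26a1, the main enzyme that breaks down retinoic acid, also held one, on the strand opposite to the gene at -32 to -16. Both genes rose at day 3, as did Ppbp and Prokr2, which also carry a repeat with a spacer of 5 and are not shown. Rarb is shown as a receptor and Cyp26a1 as a gene of the lists read below, with the half-sites in capitals:
Rarb, chr14:16575506-16575535, minus strand: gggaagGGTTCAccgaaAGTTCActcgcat
Cyp26a1, chr19:37697769-37697798, minus strand: caaattAGTTCAcccaaAGTTCAtctttaa

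A repeat with a spacer of 5 occurred in 32 of 32817 windows (0.0975%), one with a spacer of 1 in 0.222% and one with a spacer of 2 in 0.268%. A single half-site is common and occurred in 43.7% of windows. Of the 9 tested genes with a spacer of 5, 4 rose from day 2 to day 3 in controls (Rarb, Cyp26a1, Ppbp and Prokr2) and 0 fell. Of all tested genes 12.5% rose, and 21.4% were called in either direction. Rarb and Cyp26a1 belong to receptors and lists chosen with results of these samples known, and the counts carry no test. A match of letters is a description and not a measured binding site.

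Rarg, the most abundant receptor of the pluripotent cells, was lower at day 3 than at day 2 in both genotypes and, at day 3, lower in KO lines than in controls. At day 0 it stood at 94.9, 91.1 and 161 CPM in controls and at 117, 157 and 225 CPM in KO lines. Day 2 levels were 118, 137 and 180 CPM in controls and 125, 94.9 and 120 CPM in KO lines. Day 3 levels were 79.2, 87.9 and 107 CPM in controls and 42.8, 26.3 and 81.8 CPM in KO lines. The genotypes overlapped at each day. At day 3 lines #14 and #19 lay well below every control and #319 lay among them. Line #1A4 was the highest control at each day, by 0.80, 0.50 and 0.36 on the log2 scale over HM1.

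From day 2 to day 3 Rarg fell, by a log2 change of -1.29 ± 0.23 in KO lines (adjusted p = 0.000676) and -0.65 ± 0.22 in controls, the latter just past the threshold (adjusted p = 0.0487). The control call was lost with each series of days as a fixed block (-0.65, adjusted p = 0.0704), and without any one control or #14 (adjusted p 0.0535 to 0.244). Between day 0 and day 3 the change of Rarg in KO lines was -1.78 ± 0.23 (adjusted p = 1.26e-05). At day 3 KO lines were lower by a log2 difference of -0.95 ± 0.23 (adjusted p = 0.026), with -0.96, -1.66 and -0.39 in lines #14, #19 and #319. That call was lost without any one of the 3 controls or without #14 (adjusted p 0.0576 to 0.194) and without the background term (0.17). At day 0 the difference ran the other way (0.53 ± 0.22, adjusted p = 0.383). The change of the KO difference from day 0 to day 3 was -1.49 ± 0.32 and missed the threshold in edgeR (adjusted p = 0.0554), while DESeq2 called it (-1.48 ± 0.34, adjusted p = 0.002). The median of chromosome 15, which holds Rarg (102234940 to 102246500, minus strand), was within 0.08 of 0 on the log2 scale in each KO line and day.

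Rxra, a broadly expressed partner of the RARs, was higher at day 3 than at day 0 in every line but #319. In the main edgeR fit its change from day 0 to day 2 passed in neither genotype (0.42 ± 0.29 in controls, -0.06 ± 0.29 in KO lines). At day 0 it stood at 20.0, 22.8 and 17.2 CPM in controls and at 22.3, 19.8 and 55.2 CPM in KO lines. At day 2 the levels were 29.7, 26.5 and 24.3 CPM in controls and 32.3, 27.6 and 31.7 CPM in KO lines. On day 3 the values were 49.3, 42.9 and 45.2 CPM in controls and 70.6, 69.5 and 51.8 CPM in KO lines. Line #319 at day 0 was far above every other day 0 sample. At day 3 all KO lines were above all controls. Between day 0 and day 3 Rxra rose by 1.19 ± 0.29 in controls (adjusted p = 0.00295) and by 1.01 ± 0.29 in KO lines (adjusted p = 0.00885; 0.144 without #14 and 0.0926 without #19). Without #319 the KO rise was 1.74. The rise from day 2 to day 3 passed in KO lines (1.07 ± 0.29, adjusted p = 0.0104; 0.0546 without #14) and missed the threshold in controls (0.77 ± 0.29, adjusted p = 0.0678). The control rise passed in DESeq2 (0.0469), in the HM1-derived lines alone (0.0119), without #19 (0.0346) and without #319 (0.000521). The genotype difference at day 3 was 0.49 ± 0.28 and did not pass (adjusted p = 0.34). It passed where day 3 was fitted alone (0.46 ± 0.12, adjusted p = 0.0398) and without line #319 (0.55 ± 0.14, adjusted p = 0.0291). In #319 at day 0 the 8 primitive endoderm markers summed to 37.6 CPM, against 21.8 to 29 CPM in controls. Of that sum Sox7 gave 18.1 CPM, against at most 1.49 CPM in any control, while Gata6, Foxa2 and Dab2 were lower in every KO line than in any control. Their part in the high Rxra value was not tested.

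Rxrb, another broadly expressed partner, passed the test in no comparison of days or genotypes. At day 0 it stood at 75.3, 70.4 and 77.5 CPM in controls and at 83.5, 82.5 and 52.7 CPM in KO lines. Day 2 samples held 61.9, 59.2 and 64.4 CPM in controls and 67.3, 76.2 and 43.3 CPM in KO lines. At day 3 the levels were 69.1, 71.5 and 84.2 CPM in controls and 77.6, 69.7 and 56.8 CPM in KO lines. Line #319 was the lowest sample at each day, and lines #14 and #19 lay above the controls at days 0 and 2 and among them at day 3. Its log2 changes between successive days lay between -0.27 and 0.28, with SEs of 0.19, and those between genotypes between -0.16 and -0.02, with a sign that changed in the HM1-derived lines alone (0.20, 0.24 and 0.057 at days 0, 2 and 3).

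Rxrg, which is restricted to few tissues in the animal, was scarce and peaked at day 2. At day 0 it stood at 0.962, 0.745 and 0.957 CPM in controls and at 1.03, 0.837 and 0.959 CPM in KO lines. On day 2 the levels were 5.50, 5.05 and 4.46 CPM in controls and 8.08, 12.1 and 10.9 CPM in KO lines. Day 3 samples held 1.80, 1.37 and 2.06 CPM in controls and 1.09, 0.687 and 4.37 CPM in KO lines. At day 2 all 3 KO lines were above all controls. At day 3 lines #14 and #19 were below the controls and #319 was above them. Between day 0 and day 2 Rxrg rose by 2.52 ± 0.45 on the log2 scale in controls (adjusted p = 0.000505) and by 3.46 ± 0.46 in KO lines (adjusted p = 4.14e-05). It then fell, by a log2 change of -1.56 ± 0.42 in controls (adjusted p = 0.015) and -2.48 ± 0.44 in KO lines (adjusted p = 0.000637). The KO fall was -3.44 without #319 and -1.91 without #19. The control fall did not pass without HM1 replicate 1 (0.126) or replicate 2 (0.185). At day 2 the genotype difference was 1.02 ± 0.41 and did not pass (adjusted p = 0.18).

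Over the 6 receptors, the KO lines differed from controls in 2 at day 3, Rara and Rarg, both lower, where 5.19% of tested genes passed. At day 3, 2 of 6 receptors (Rara and Rxra) did not overlap between genotypes, against 35.2% of tested genes. At day 2 it was 0 of 6 by the test (1.6% of tested genes) and 1 of 6 without overlap, Rxrg (21.7%). At day 0 it was 0 of 6 by the test (0.854%) and 1 of 6 without overlap, Rarb at its few counts (17.8%). At an unadjusted p below 0.05 there were 2 at day 0 (Rarg and Rxra) and 1 at day 2 (Rxrg). The share of all tested genes at that looser threshold is not given here. Those counts thus cannot be set against the shares above, which are for the adjusted p. DESeq2 and limma-voom with the block also called 0 on both days. The changes of the KO difference between days gave 0 of 6 in edgeR in each case, against 0.0219%, 0.0383% and 0.427% of tested genes for days 0 to 2, 2 to 3 and 0 to 3. At an unadjusted p below 0.05 those contrasts gave 2 (Rarb and Rarg), 2 (Rara and Rarb) and 1 (Rarg). DESeq2 gave 0, 0 and 1 by adjusted p. No share of all tested genes is given here for either rule, so neither set of counts can be compared with the edgeR shares.

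The KO lines were also compared within each genetic background. In a model with a separate KO effect for each background, added after the data were seen, the HM1-derived lines differed from HM1 in 4 of 6 receptors at day 3 (10.8% of tested genes). Rarb was higher by 1.51 ± 0.30 on the log2 scale (adjusted p = 0.00965) and Rxra by 0.55 ± 0.14 (0.0308). Rarg was lower, at -1.21 ± 0.23 (0.0073), and so was Rara, at -0.67 ± 0.15 (0.0167). At day 2 that model called 1 of 6, Rxrg, at 1.02 ± 0.26 (adjusted p = 0.0393, against 7.52% of tested genes). At day 0 it called 0 of 6 (2.19%), with Rarg alone at an unadjusted p below 0.05, a threshold to which the 2.19% does not apply. The blastocyst-derived effect rests on 1 KO and 1 control sample a day. Line #319 adds nothing to the estimate of spread, which comes from the HM1-derived samples and from #1A4 across days, and it is assumed to vary as they do. None of the 4 receptors called at day 3 in the HM1-derived lines had a called difference between backgrounds there (adjusted p 0.174 for Rarb, 0.364 for Rarg, 0.603 for Rara and 0.694 for Rxra), which does not show that the backgrounds act alike. A difference between backgrounds was called for 2 of 6 receptors at day 0 (Rxra and Rxrb, 6.02% of tested genes), 1 of 6 at day 2 (Rxrb, 4.22%) and 1 of 6 at day 3 (Rxrg, 1.26%).

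**Figure D3:**
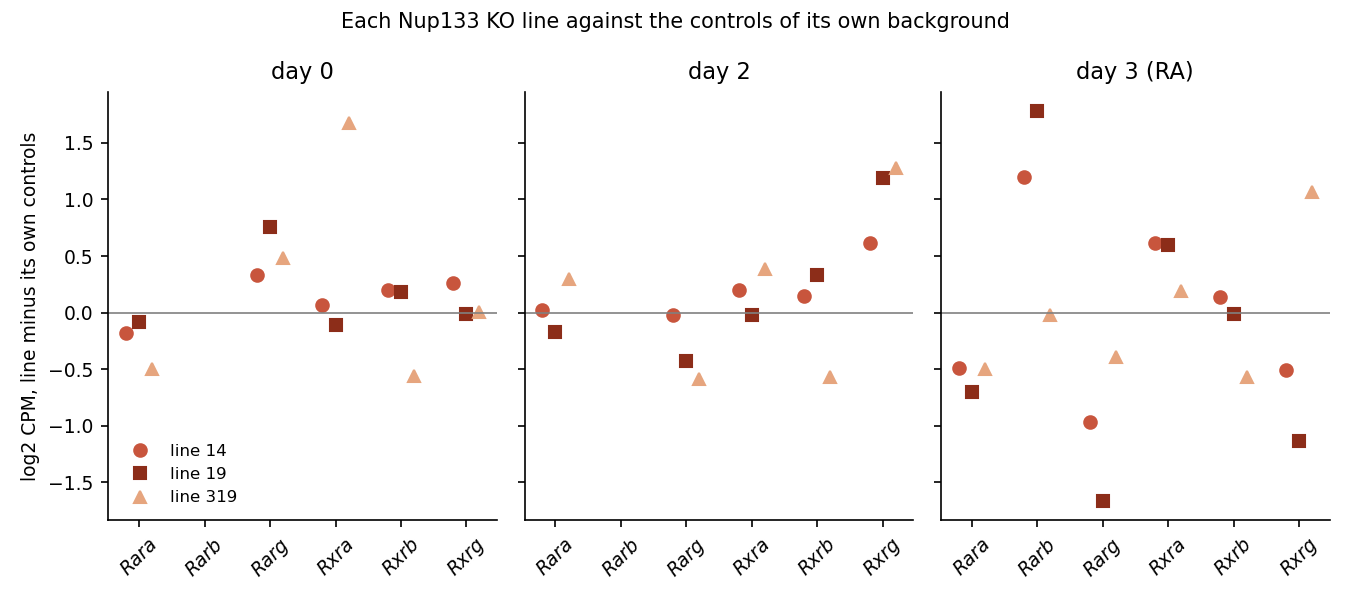
Log2 CPM of each Nup133 KO line minus the mean of the controls of its own background (lines 14 and 19 against 2 HM1 samples, line 319 against line 1A4), by receptor and day; Rarb is left out at days 0 and 2, where it held 17 counts or fewer. At day 3 lines 14 and 19 have Rarb at 1.20 and 1.78 and Rarg at -0.96 and -1.66, while line 319 has -0.02 and -0.39.

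Transcripts of one gene share exons and reads in these counts. They are therefore read mainly as differences between 2 transcripts of a gene, which cancel the reads they share. Rara-202 has 722 bases that Rara-201 lacks and starts at 98960412, inside the gene, while 868 bases are found only in Rara-201, which starts at 98937718. At day 0 the count of Rara-202 minus that of Rara-201 was -3.48, -3.03 and -2.63 CPM in controls and -2.30, -3.30 and -2.10 CPM in KO lines. At day 2 it was -2.04, -3.23 and -2.34 CPM and -2.02, -1.21 and -2.46 CPM. At day 3 it was 3.53, 4.74 and 3.90 CPM in controls and 0.727, -0.069 and 3.26 CPM in KO lines. The difference was below 0 in all 12 samples of days 0 and 2 and above 0 in 5 of 6 samples of day 3, so reads private to the internal start gained on those of the upstream start. At day 3 the controls lay above all KO lines, with #319 close below them and #14 and #19 near 0. The net difference equals 4.35% to 5.70% of the Rara-201 count in the controls of day 3. Being a net value, it does not give the size of either private set of reads. It is a description of 3 samples a group with no test.

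**Figure D4:**
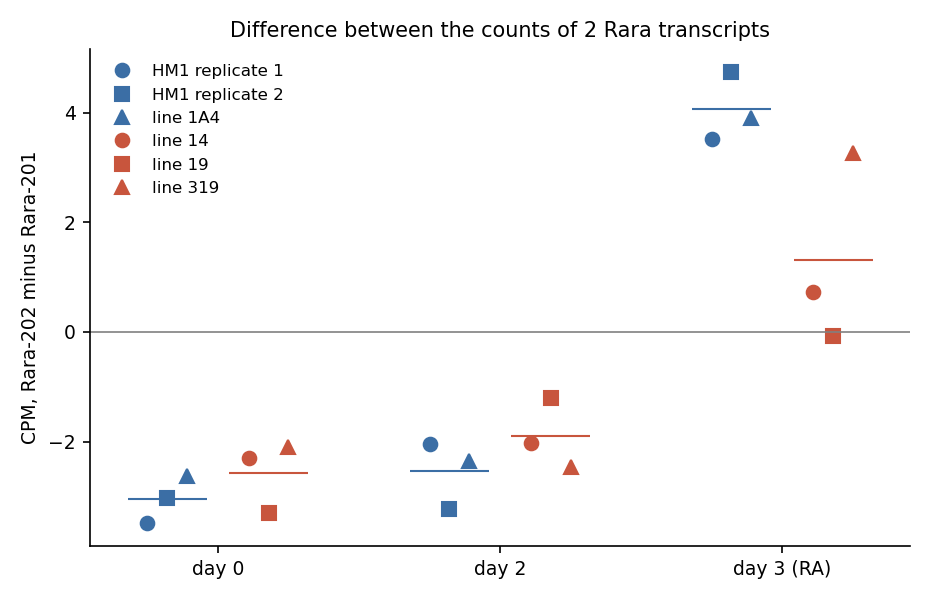
Count of Rara-202 minus that of Rara-201 in CPM by day, blue for control and red for Nup133 KO samples, bars for group means. The difference turns from below 0 at days 0 and 2 to between 3.53 and 4.74 CPM in controls at day 3. In lines 14, 19 and 319 it is 0.727, -0.069 and 3.26 CPM at day 3.

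For Rarg the difference between Rarg-202, which starts inside the gene, and Rarg-201 was above 0 in all 18 samples. In controls it was 2.21 ± 0.361 CPM at day 0, 1.79 ± 0.411 at day 2 and 1.42 ± 0.258 at day 3 (SD, n = 3). In KO lines it was 3.74 ± 0.678, 1.22 ± 0.283 and 0.572 ± 0.586 CPM. At day 0 the KO lines (3.22 to 4.51) lay above the controls (1.79 to 2.43). As a percent of the Rarg-201 count the genotypes overlapped there, at 1.53% to 2.71% in controls and 2.05% to 2.83% in KO lines. In line #19 at day 2 the shorter Rxra-206 had a count of 0.377 times that of Rxra-201, against 0.667 to 0.769 in the other samples. Rarg-205 had one of 0.154 times that of Rarg-202, against 0.27 to 0.339. Rxra-206 and Rarg-205 have 0 bases of their own, so shared reads do not cancel in these ratios, which carry no test.

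The genes around the receptors were read from 7 lists, which hold 61 tested genes. Retinoic acid target genes rose in both genotypes, 16 of 16 from day 2 to day 3 in controls and 16 of 16 in KO lines, with median log2 changes of 6.43 and 6.95 beside 0.004 and 0.003 over all genes. Of all tested genes 12.5% rose in controls, and 33.6% were called in either direction in KO lines. In controls, Stra8, a germ cell gene named for its response, rose from 0.204 ± 0.168 to 187 ± 77.9 CPM and Cdx1, a homeobox gene of axial patterning, from 0.023 ± 0.022 to 12.6 ± 8.85 CPM. In KO lines, Cyp26a1 rose from 0.132 ± 0.133 to 150 ± 39.3 CPM and Hoxb4 from 0.121 ± 0.094 to 42.3 ± 18 CPM. At day 3, where 5.19% of tested genes were called, 3 of 16 were higher in KO lines and 0 lower, with a median of 0.75: Cyp26a1 (1.24 ± 0.30, adjusted p = 0.0282), Meis1 (1.16 ± 0.19, 0.00477) and Hoxa3 (0.94 ± 0.24, 0.0335). At day 0, with 0.854% of tested genes called, 2 were lower, Cyp26a1 (0.683 ± 0.213 against 9.33 ± 4.0 CPM, adjusted p = 7.54e-05) and Zfp703 (2.81 ± 0.985 against 8.24 ± 3.00 CPM, 0.00519). At day 2, with 1.6% called, Cyp26a1 was lower (0.132 ± 0.133 against 4.81 ± 0.521 CPM, adjusted p = 0.000225). Cyp26a1 was the 1 gene of the lists whose KO difference changed between days, by 5.94 ± 0.55 from day 2 to day 3 (adjusted p = 0.000233).

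Among 8 tested genes that make or break down retinoic acid, 3 were higher in KO lines at day 3 and 0 lower. Besides Cyp26a1 these were the synthesis enzymes Aldh1a2 (7.58 ± 4.10 against 1.93 ± 0.456 CPM, adjusted p = 0.00719) and Aldh1a1 (1.32 ± 0.354 against 0.212 ± 0.076 CPM, adjusted p = 0.00692). Of 6 genes of retinoid binding and delivery, Crabp1, a cytoplasmic binding protein, was higher (57.2 ± 31.8 against 21.7 ± 2.94 CPM, adjusted p = 0.0454). Of 7 other receptors that can bind the same kind of DNA element, Nr2f1 was higher (29.5 ± 22.0 against 4.49 ± 1.45 CPM, adjusted p = 0.00552). Corepressors (8 genes), coactivators (10) and other partners of RXR (10 tested) gave 0 calls between genotypes at each of the 3 days. Their medians at day 3 were -0.08, 0.06 and 0.17 beside 0.02 over all genes. Over the 61 genes, 7 were higher and 0 lower at day 3, where 5.19% of tested genes passed. These lists were chosen with results of these samples known, so their counts are not independent evidence of a direction.

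**Figure D5:**
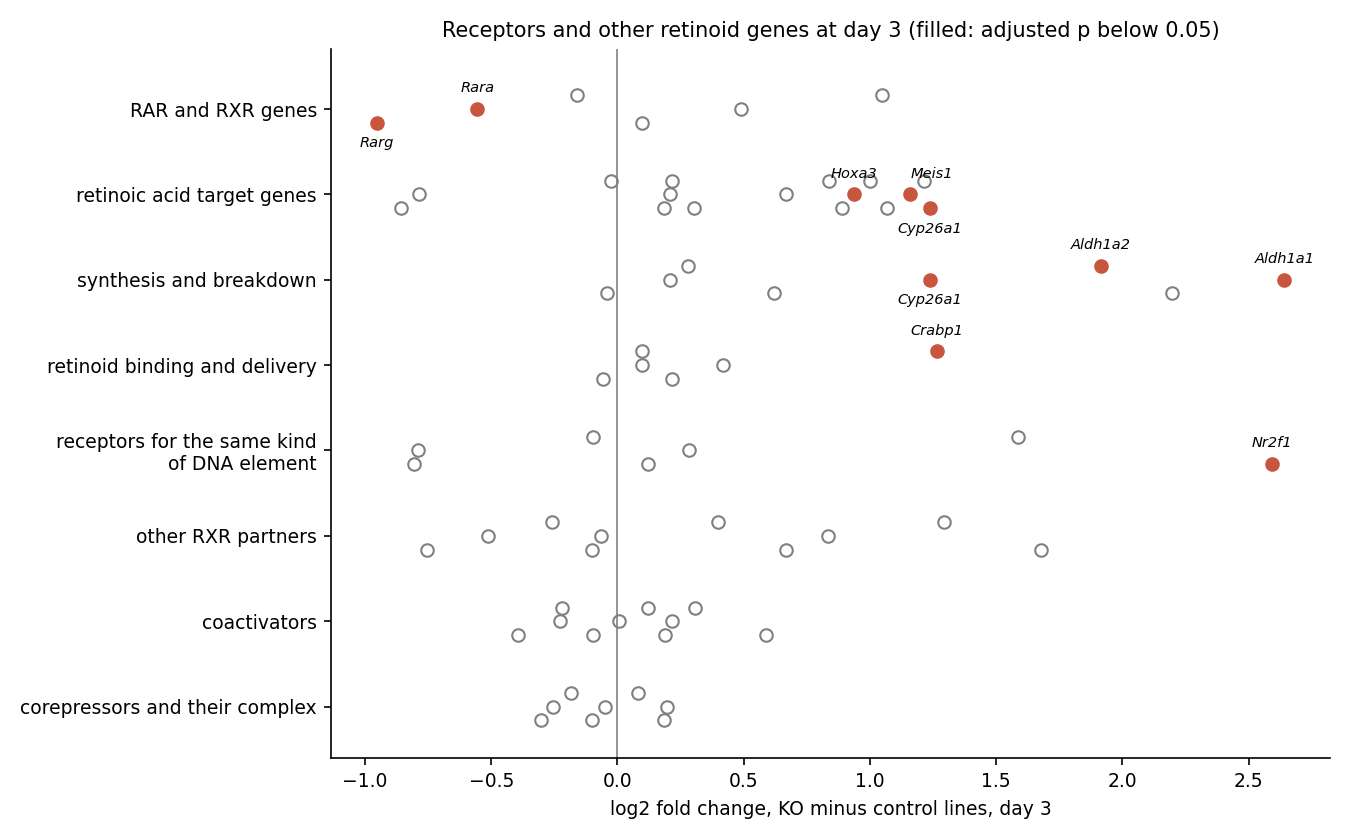
Log2 fold change between Nup133 KO and control lines at day 3 for the 6 receptors and 7 lists of retinoid genes, 1 point per gene (4 genes stand in 2 lists), filled and named where the adjusted p is below 0.05. The 2 filled receptors lie below 0 (Rarg at -0.95, Rara at -0.56), and the 7 filled genes of the lists lie above it.

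Among 11414 genes compared by Pearson's r of log2 CPM over the 18 samples, the pattern most like that of Rarb was that of Ednrb, an endothelin receptor of neural crest (r = 0.98), then Hoxa4 (0.98) and Hoxb5 (0.98). Ednrb rose from 0.271 CPM at day 2 to 27.5 CPM at day 3 in controls and from 0.3 to 76.9 CPM in KO lines. For Rxrg the most alike were Dnaic1, a dynein chain of motile cilia (0.95), Plcxd1 (0.94) and Hes6, a neurogenic regulator (0.94), each with its highest means at day 2. For Rxra they were Kctd1 (0.95), Tmem56 (0.94) and Grid1 (0.94), for Rarg Gpr160 (0.90), Pycard (0.90) and Crybg2 (0.89), and for Rxrb Ifnar2, Evc2 and Rela (0.84, 0.84 and 0.83). Dkk3 (0.90) and Mgarp (0.88) were among the 3 most like Rara. Between receptors, r over the 18 samples was 0.79 for Rarb and Rxra, -0.69 for Rarb and Rarg and -0.65 for Rara and Rxrg. These values describe samples that share days and lines, and they carry no test.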

How the data were processed

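The deposited files hold raw counts per Ensembl transcript for 72 libraries. Per the submitters' processing notes, bcl2fastq 2.17.1.14, STAR 2.4.0k, SAMtools and HTSeq were used with the mm10 build. Reads in exons shared by transcripts were counted for each transcript. The 4 technical libraries of a sample differed by sampling noise (chi-square per degree of freedom 1.01 to 1.03) and were added up to 18 samples. Transcripts were named from GENCODE M21, and 1.44% to 2.46% of each sample's counts had no match and were left out.

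Each gene is represented by its transcript with the highest total. edgeR 4.0.16 (R 4.3.3; TMM, filterByExpr, robust quasi-likelihood, Benjamini-Hochberg over 18273 genes) was fitted with 6 groups and a term for background, on 11 residual degrees of freedom. On simulated data for the day 3 comparison (17826 genes) it recovered 41% of 2-fold and 95% of 4-fold changes. Per-sample levels are CPM on TMM-scaled library sizes.

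The days of a series come from the same line and are paired in that sense. Their deviations from the group means, taken without the background term, correlated above 0.1 in 16 of 18 pairs. With that term in limma-voom, the correlation within a series was 0.009. Blocked fits used edgeR (fixed block) and limma 3.58.1 (random block). Other alternatives were DESeq2 1.42.0, RLE scaling, no filter, no background term, single days, HM1-derived lines alone, leaving out samples, other transcript choices and, added after seeing the data, a KO effect per background and centred chromosomes.

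All 6 receptors are named, with the 3 genes most correlated with each (log2 CPM, prior count 2; mean of 1 CPM or more; no clone names; not on chromosomes 8, 12, X, Y or MT) and up to 4 called genes of largest change per list. The receptors and lists were chosen with earlier results of these data known. Values of some genes that this rule names are not reported here.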

Additional observations from a re-analysis of the deposited data

Results flagged for a closer look

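The KO effect of the blastocyst-derived line #319 (against #1A4) differed from that of the HM1-derived lines (against HM1) in 4 cases by an interaction term in edgeR, in a model added after the data were seen. For Rxra at day 0 the difference of the log2 effects was 1.57 ± 0.21 (adjusted p = 0.00154), since Rxra was 55.2 CPM in #319 against 17.2 in #1A4. For Rxrb it was -0.80 ± 0.19 at day 0 (adjusted p = 0.0264) and -0.87 ± 0.19 at day 2 (adjusted p = 0.0277), since #319 held the lowest level at both days. For Rxrg at day 3 it was 2.18 ± 0.41 (adjusted p = 0.027), with 4.37 CPM in #319 against 1.09 and 0.687 in #14 and #19. Each rests on 1 KO and 1 control sample of the blastocyst background. The spread behind the SEs comes from the HM1-derived samples and from #1A4, whose shift from HM1 was fitted as one over the days, and #319 is assumed to vary as they do. The cause of these differences was not tested.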

How the results depend on the processing

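Of the values recomputed under the alternatives, 762 kept their direction and side of the threshold, 43 lost a call, 22 gained one and 30 changed sign. The number of receptors called between genotypes at day 3 was 2 and became 1 (Rarg) with no filter on low counts, with transcripts added up or with each chromosome centred, 0 with no background term, and 4 for the HM1-derived lines with a KO effect per background, which gave 1 (Rxrg) at day 2. The change of the KO difference from day 0 to day 3 gave 1 receptor (Rarg) with no filter, without line #19 at day 2, in the HM1-derived lines alone and in DESeq2. Leaving out each replicate in turn gave 0 to 4 receptors at day 3, 0 to 1 at day 2, 2 to 5 from day 2 to day 3 and 2 to 4 from day 0 to day 3 in controls, 0 to 1 for the change of the KO difference from day 2 to day 3 (Rxrg without #319, -1.92, adjusted p = 0.0441) and 0 to 1 from day 0 to day 3. With the series of days as a random block in limma-voom, 3 receptors were called at day 3 (Rara, Rarb and Rarg). With the series as a fixed block in edgeR, 3 were called from day 2 to day 3 in controls (Rarg lost). Apart from Rara from day 0 to day 3 in controls (lost), no other call changed. Except for the KO effect per background, the share of all tested genes called is not given for these alternatives. Their counts of receptors are thus not set against such a share.

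The sign changes below were in comparisons that did not pass in the main edgeR fit. For Rxra from day 0 to day 2 in KO lines, at -0.064 in that fit, the value of opposite sign passed in the HM1-derived lines. In the HM1-derived lines alone the KO difference was -0.012 for Rxra and 0.20 for Rxrb at day 0, -0.072 for Rara and 0.24 for Rxrb at day 2, and 0.057 for Rxrb and -0.81 for Rxrg at day 3. There, Rarb changed by -0.39 in controls from day 0 to day 2, and Rxra by 0.52 in KO lines, which passed (adjusted p = 0.03). With a KO effect per background Rxrb was at 0.21, 0.26 and 0.028 at days 0, 2 and 3 and Rxrg at -0.91 at day 3. Rxrb at day 2 was 0.009 with no background term and 0.002 with the longest transcript. Rxrg at day 3 was -0.14 with day 3 fitted alone and -0.13 with the replicate block. Leaving out a replicate gave, at day 0, -0.14 to 0.21 for Rxrb and -0.15 to 0.26 for Rxrg. At day 2 it gave -0.044 to 0.14 for Rara, -0.013 to 0.29 for Rxra and -0.15 to 0.26 for Rxrb, and at day 3 -0.26 to 0.14 for Rxrb and -0.91 to 0.46 for Rxrg. From day 0 to day 2 it gave -0.41 to 0.49 for Rarb in controls and -0.33 to 0.52 for Rxra in KO lines. The cause of these changes was not tested, beyond fewer samples in the fits that leave some out. Depth limits Rarb at days 0 and 2, where 0 to 17 counts a sample were found.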

Other observations

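Without line #19 at day 2, over 17 samples, the 3 genes most like Rarb kept 1 of the former 3 (Ednrb), those most like Rxra kept 1 (Kctd1) and those most like Rxrb kept 0.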
